A study of Petromyzon marinus with 4 samples.

Results

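In the larval gonad of the sea lamprey (Petromyzon marinus), 751 of 40246 called cell barcodes gave at least 20% of their counts to 3 neighbouring genes of chromosome 43, LOC116951576, LOC116951578 and LOC116951577. These barcodes, the members described here, were 344 of the 19654 called barcodes of larval library 1 and 407 of the 20592 of larval library 2, out of 111067 called barcodes in the whole series. A called barcode passed a fixed minimum of counts and had at least 250 detected genes, and the members had a median of 6185.5 and 7284 counts in larval libraries 1 and 2. The choice rests on measured counts of the 3 rule genes, so that their high share is the rule and not a result. All animals were wildtype and caught in the wild at an unknown age, and no treatment was given. The larvae gave 2 libraries labelled as biological replicates, with gonads that had not yet differentiated. The transformers, which are animals after metamorphosis with a determined sex, gave 1 female and 1 male library. Gonads were dissociated, live cells were sorted, and polyA RNA was captured with a PIPseq 3' single cell kit. How many animals went into each library is not stated in the labels, so that the spread between libraries may hold technical variation.

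RefSeq's gene table (assembly UKy_Petmar_22M1.pri1.0), used only for names and order, gives the protein-coding genes here as FBXL16, LOC116951575, LOC116951579, LOC116951577, LOC116951576, LOC116951578 and NPRL3. NPRL3 encodes a subunit of a complex that restrains growth signalling through mTORC1. In jawed vertebrates NPRL3 lies beside the alpha-globin genes and its introns hold enhancers that act on them in red cell precursors. Lampreys are known to carry different haemoglobins as larvae and as adults. The files and the table name no product for the LOC numbers of this locus, so that none is given one here. Red cell precursors are also known for haem synthesis in the mitochondrion, for iron handling, and for the loss of nucleus and organelles in mammals, though lamprey red cells keep their nucleus. Of 31 listed genes for the red cell membrane and skeleton, only 3 were found by name among the features. ADD1, GYPC and STOM, the 3 found, were not 4-fold higher in the members of both libraries. Against the other called larval barcodes, ADD1 was higher in both libraries, and GYPC and STOM were lower in both. The members are therefore named by their leading genes and given no cell type.

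The 4 libraries held between 239024376 and 406358335 counts. Of the called barcodes, 6 were called in both larval libraries, and 0 of these were members. Over 506 genes with at least 200 counts in the members of each larval library, the log2 ratio between the libraries had an SD of 0.25, against 0.09 from counting error alone. In each library, barcodes ranked 40000 to 80000 by counts (median 131 and 135 counts in larval libraries 1 and 2) gave the background of RNA outside cells. The rule genes made up 3.64% and 4.32% of it.

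The members were 1.75% of called barcodes in larval library 1 (exact binomial 95% interval 1.57 to 1.94, counting error only) and 1.98% in larval library 2 (1.79 to 2.18), a mean of 1.86% ± 0.160 (SD, n = 2). The rule cuts on the share of the rule genes, so that members and others differ in it by choice, and no gap lay at the limit. The median share was 65.4% and 68.5% in the members, with a maximum of 86.0% and 89.0%, and 0.0940% and 0.10% in the other called barcodes. Close to the limit, 11 barcodes of each library had a share of 15% to 20% and 8 of each had 20% to 25%. The lowest shares inside were 20.2% and 20.7% and the highest outside were 19.6% and 19.5%. The members held 89.3% and 91.2% of the counts of the rule genes in called barcodes, although they held 1.65% and 1.93% of all counts in called barcodes. By the same rule, 0 of 30598 called female barcodes and 0 of 40223 called male barcodes were members, which allows shares of up to 0.00980% and 0.00746%.

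**Figure D1:**
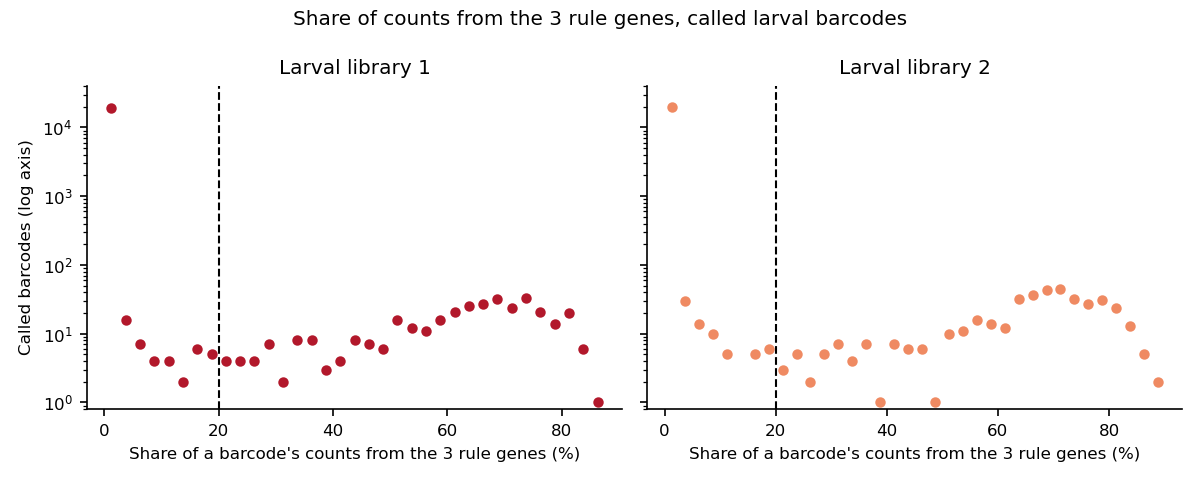
Called barcodes of each larval library (log axis) by the share of their counts from the 3 rule genes, in steps of 2.5%; steps with 0 barcodes are not drawn and the dashed line marks 20%. Most barcodes lie in the lowest step, and the members form a broad group with medians of 65.4% and 68.5%.

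The 3 rule genes came in similar proportions from member to member. LOC116951576 gave 46.3% of their sum in both larval libraries, with a range over members from 39.4% to 52.3% in library 1 and from 41.1% to 53.9% in library 2. LOC116951578 gave 42.1% and 43.3% of the sum. LOC116951577 gave 11.6% and 10.4%, with members between 0.399% and 24.04% in library 1 and between 4.61% and 22.2% in library 2. All 3 genes were counted in all 344 and all 407 members. The same proportions stood in the other called barcodes (46.8%, 41.1% and 12.1% in library 1) and in the background (46.8%, 41.3% and 11.9%). If neighbours are near copies of each other, reads may be shared among them, and the split between them is uncertain.

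Genes of the block differed in level, and NPRL3 was not higher in the members than in the other larval barcodes. LOC116951575, on the far side of LOC116951579 from the rule genes, was counted in 89.2% and 84.8% of members, at 15622 and 14334 CPM, the usual scaling of a gene's counts to a fixed sum, here over all counts, in libraries 1 and 2. It stood at 22.4 and 22.5 CPM in the other barcodes. LOC116951579, the next gene from LOC116951575 towards the rule genes, had 193 and 258 CPM in the members, 0.533 and 0.592 CPM in the other larval barcodes, and 94079 and 68421 CPM in comparable female and male transformer barcodes (defined below). FBXL16, at the start of the block, stood at 8.44 and 14.9 CPM in the members and 1.07 and 1.01 CPM in the others. NPRL3 itself stood at 7.79 and 6.03 CPM in the members and at 20.1 and 17.6 CPM in the other barcodes. These values count all genes in the total, of which the rule genes took 58.4% and 62.3% in the members. With the rule genes left out of totals, NPRL3 was at 19.8 and 16.9 CPM in the members and 21.1 and 18.5 CPM in the others, a log2 ratio of −0.06 and −0.10. Of 8 listed genes of the NPRL3 neighbourhood of jawed vertebrates that were found, 0 were 4-fold higher or lower. Over all features 1.34% were higher and 3.18% lower. The median log2 ratio was −0.83 for the listed genes and −0.29 over all features.

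Other chromosome 43 genes divided by stage. LOC116951444 was counted in 100% of members at 26099 and 20877 CPM, while female transformer barcodes held 24829 CPM of it and male ones 25691 CPM. LOC116951636 stood at 17885 and 17500 CPM in the larval members against 2.496 CPM in female and 1.62 CPM in male transformer barcodes. A run of 8 neighbours from LOC116951663 to LOC116951551 stood between 27.7 CPM (LOC116951566, library 2) and 895 CPM (LOC116951551, library 2) in the larval members. In the other larval barcodes the 8 genes stood between 0.353 CPM (LOC116951566, library 1) and 14.4 CPM (LOC116951653, library 1). With the rule genes left out of totals, LOC103091815 had a log2 ratio of 8.92 and 8.77 between members and others. The 6 listed transformer-form genes, LOC116951579 and 5 of this run, were all at least 4-fold higher in the larval members (median log2 ratio 8.17). Of all features, 1.34% were. In the transformer barcodes the same 8 genes were far more abundant, from 14682 CPM (LOC116951551, female) to 120718 CPM (LOC103091815, female). LOC116951551 was the one of these 8 most widely detected in larval members, in 51.5% and 50.6% of them, against 4.18% to 18.2% for the other 7. Comparable transformer barcodes were taken as called barcodes that gave at least 20% of their counts to LOC116951566, LOC116951565, LOC116951657, LOC116951579 and LOC116951663. They numbered 5736 of 30598 in the female library (18.7%) and 690 of 40223 in the male library (1.72%). Their median share of the 5 genes was 38.7% (female) and 35.5% (male). The median share of the rule genes in the larval members was 65.4% and 68.5%, so that the same limit chose unlike sets. The 5 genes chose the transformer barcodes, so that the levels of these genes there are a description.

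**Figure D2:**
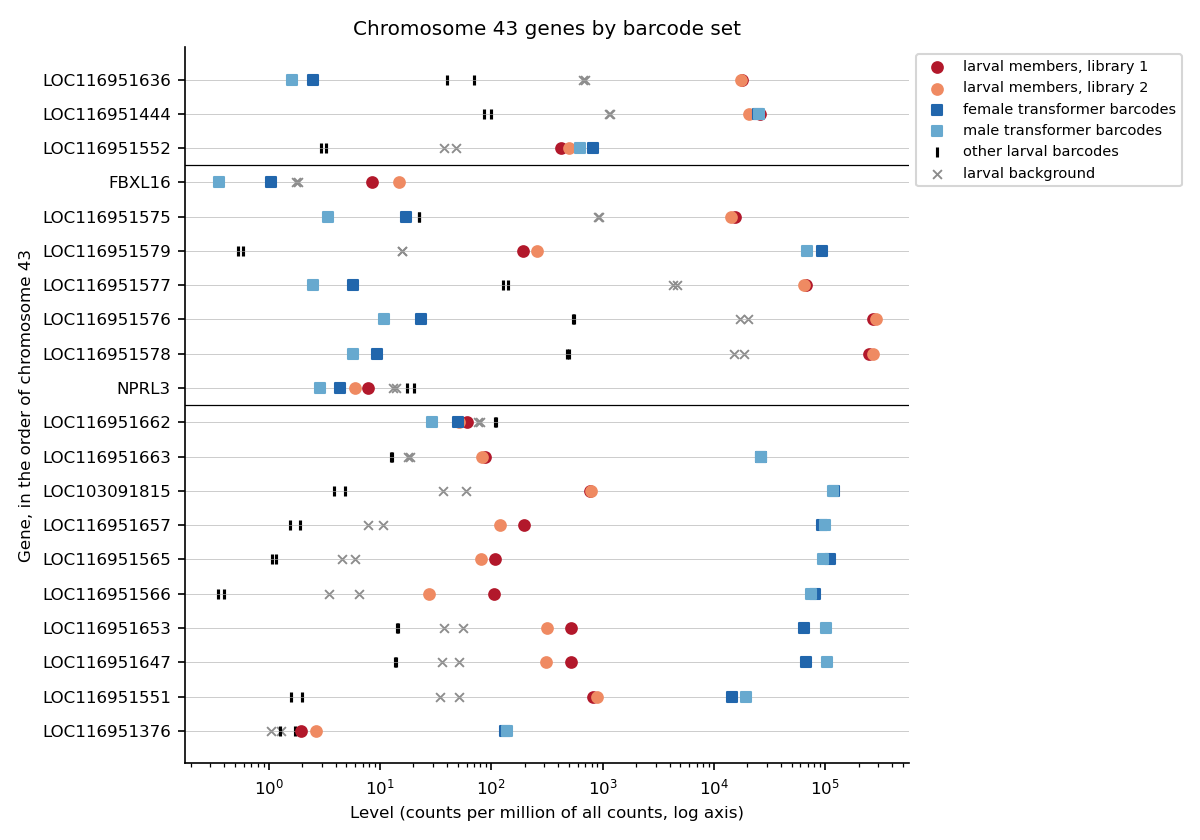
Level of chromosome 43 genes, in their order on the chromosome, in larval members (circles), transformer barcodes (squares), other larval barcodes (bars) and the larval background (crosses), in CPM of all counts on a log axis; lines part the NPRL3 block from the genes before and after it. LOC116951444 is high in both stages, LOC116951575 and LOC116951636 in the larval members, and LOC116951579 and the run from LOC116951663 to LOC116951551 in the transformers.

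Some larval members carried the second run of genes at higher levels. In a subset chosen after these values were seen, 32 of 344 members (9.30%, exact 95% interval 6.45 to 12.9) and 45 of 407 (11.1%, 8.18 to 14.5) had at least 10 counts of LOC103091815, LOC116951653 and LOC116951647 together. They held 97.6% and 97.7% of the members' counts of these 3 genes, while 254 and 308 members had 0 counts. Genes of the same run that did not choose the subset were also more abundant in it. LOC116951566 stood at 1691 and 469 CPM of remaining counts in the subset and at 7.81 and 2.41 CPM in the other members, and LOC116951663 stood at 1322 and 1402 against 17.6 and 8.84 CPM. The values of LOC116951566 rest on few members. It was counted in 5.81% and 4.18% of all members, a smaller share than the subset's. In library 1 a single member held 114 of its 329 counts. LOC116951579, which belongs to the NPRL3 block, stood at 885 and 1348 CPM against 417 and 601 CPM, a log2 ratio of 1.09 and 1.17. The second run never passed the rule genes, and it took at most 19.8% and 12.5% of a member's counts. The subset was deeper, with a median of 13303 and 12724 counts against 5735 and 6850.5, and the part of depth in these ratios was not tested. Genes of the run may share reads with each other, LOC116951653 and LOC116951647 above all, since their counts were nearly equal in each set.

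The remaining genes were read with the 3 rule genes left out of totals. The members were compared with the other called barcodes of the same library as log2 ratios of CPM with 0.5 added to each count. Members and others were picked from the same cells, so that no test was made. A feature was called where the ratio was at least 4-fold (log2 of 2) in the same direction in both larval libraries. Of 17333 features with enough counts, 233 were higher (1.34%) and 552 were lower (3.18%), and the median log2 ratio over all of them was −0.29. Among the 233 that were higher, 181 carry only a LOC number, and 27 lie on chromosome 43, out of 305 compared there. LOC numbers are common in these data, on 13987 features, of which the table gives a symbol to 688. The share with only a LOC number among the 17333 features compared is not given, so that the 181 only describes these calls. Only 74 of the 233 had at least 50 counts in the members of each library. Both counts depend on settings. The count of lower features was 3696 with the background profile subtracted and 1078 without barcodes of high doublet score. The count of higher features was 485 with the background subtracted. The subtraction took 47.0% and 62.3% of the members' remaining counts as background. Renal counts mostly set this level, and a single member held 674 of the 878 in library 2. LOC116940529 stood at 5.36% and 5.08% of its background level, so that 3696 and 485 are not read as traits of the members.

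Outside chromosome 43, the most abundant distinctive features have no product name in the table. LOC116956946, on chromosome 68, stood at 10771 and 12331 CPM in the members and 33.2 and 32.1 CPM in the others, a log2 ratio of 8.34 and 8.59. It was counted in 99.7% and 99.8% of members. LOC116956957, also on chromosome 68, stood at 4231 and 4836 CPM against 25.7 and 27.1 CPM (log2 7.37 and 7.48). LOC116940171 on chromosome 8 stood at 590 and 722 CPM against 2.08 and 2.00 CPM (log2 8.15 and 8.49). LOC116946130 on chromosome 26 stood at 12177 and 13493 CPM against 107 and 122 CPM, but in only 55.2% and 53.8% of members. LOC116944397 and LOC116948963 were high in nearly all members (16467 and 16437, and 12421 and 11972 CPM), at 934 and 908 and at 1394 and 1359 CPM in the others. LOC116954150 differed most between the libraries, at 424 and 175 CPM in the members, and 80.8% of its counts in library 1 came from the 5% of members with most of them. Genes for cytosolic ribosomal proteins did not set the members apart, since 0 of 71 were called and their median log2 ratio was 0.07. Over all features 1.34% were called higher and 3.18% lower.

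Genes of haem synthesis and haem handling had the largest share of 4-fold higher genes among the lists outside chromosome 43. Of 15 compared, 7 were 4-fold higher in both libraries and 0 were lower, against 1.34% and 3.18% of all features, and 13 had a positive log2 ratio in both, as had 4363 of all 17333 features (25.2%). Their median log2 ratio was 2.00. Ferrochelatase (FECH), which inserts iron into protoporphyrin, stood at 112 and 130 CPM in the members and 7.29 and 7.68 CPM in the others, a log2 ratio of 3.95 and 4.09. ABCB10, a mitochondrial transporter needed for haem synthesis in mouse red cell precursors, stood at 75.8 and 81.6 CPM against 5.57 and 5.01 CPM. TMEM14C, which is needed for the import of porphyrin into mitochondria in mouse precursors and itself lies on chromosome 43, stood at 1416 and 1516 CPM against 132 and 133 CPM. It was counted in 70.6% and 72.0% of members. ALAD, the enzyme that makes porphobilinogen, stood at 49.4 and 55.3 CPM against 6.60 and 6.74 CPM.

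Other enzymes between those steps had lower counts. UROD and PPOX, which act on the ring before FECH, had log2 ratios of 2.08 and 2.24 and of 2.45 and 3.55. CPOX, the enzyme between them, missed the threshold at 1.72 and 1.58. BLVRB, a biliverdin reductase, stood at 601 and 528 CPM against 150 and 133 CPM, with log2 ratios of 2.01 and 1.99, just short of the call. HMOX2, a haem oxygenase that breaks haem down, pointed the other way at 8.23 and 4.72 CPM against 23.9 and 28.0 CPM.

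**Figure D3:**
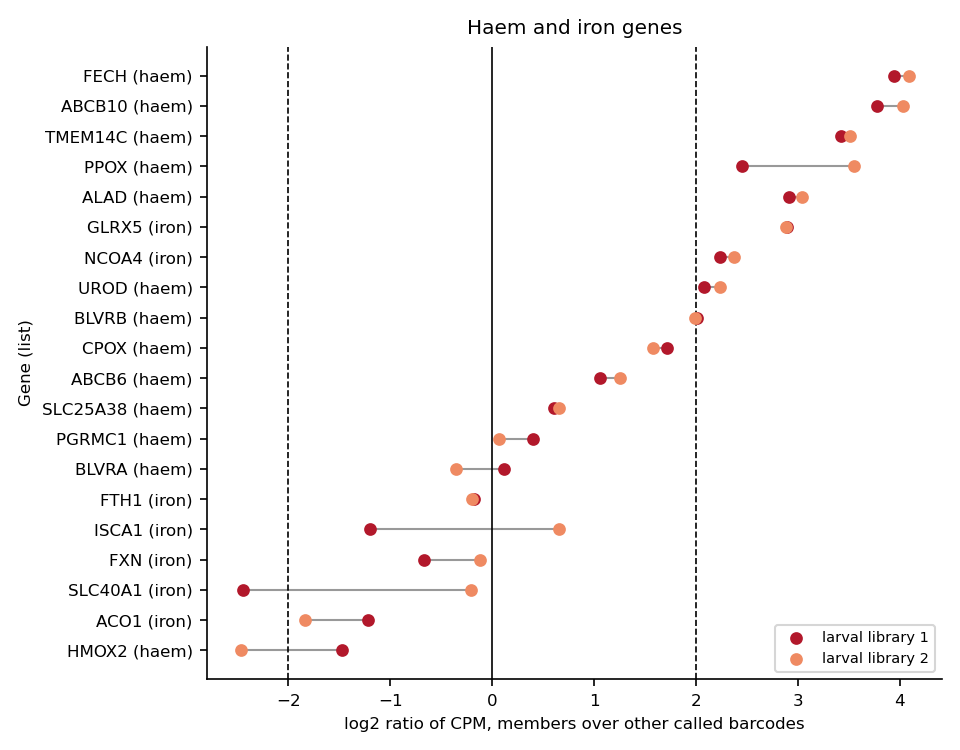
Log2 ratio of CPM of members over other called barcodes in larval libraries 1 and 2 for haem and iron genes of the lists; grey lines join the libraries, and dashed lines mark 4-fold. FECH, ABCB10, TMEM14C, PPOX, ALAD, GLRX5, NCOA4 and UROD pass 4-fold in both libraries, and FTH1 lies near 0.

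Iron genes were split. GLRX5, a mitochondrial glutaredoxin of iron-sulphur cluster assembly that zebrafish need for haem synthesis, stood at 878 and 905 CPM in the members and 119 and 123 CPM in the others. NCOA4, the receptor that sends ferritin for breakdown and so frees its iron, stood at 785 and 783 CPM against 167 and 151 CPM. These were 2 called higher of 7 compared, against 1.34% of all features, and the list's median log2 ratio was −0.27. Of the 7, 2 had a positive and 4 a negative log2 ratio in both libraries, against 4363 and 8284 of all 17333 features. FTH1, the ferritin heavy chain, was abundant everywhere, at 12471 and 11452 CPM in the members and 14058 and 13093 CPM in the others.

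Of 6 transcription factors known from blood formation that were found, GATA2 was the only one called. Over all features compared, 1.34% were called higher, the share against which the counts of calls below stand. GATA2, a factor of blood progenitors, had 25 and 26 counts in the members, at 20.6 and 17.5 CPM against 1.33 and 1.34 CPM. MYB, LMO2, BCL11A, GFI1B and TAL1 had between 0 and 19 counts and were not called, so that at this depth little can be read from them. EPAS1, a subunit of the hypoxia-inducible factors, was the only one called of 3 hypoxia genes, at 12.4 and 24.96 CPM against 2.23 and 2.49 CPM. XPO7, a nuclear transport receptor that mouse red cell precursors need as their nucleus condenses, was the only one called of 10 genes of organelle clearance, at 42.0 and 58.7 CPM against 8.03 and 7.93 CPM. PRDX3, the mitochondrial peroxiredoxin, was 1 called of 17 metabolic and antioxidant genes, at 134 and 160 CPM against 31.7 and 32.2 CPM. The median log2 ratio was 0.41 for the transcription factors and 0.13 for the hypoxia genes. It was −0.16 for organelle clearance and −0.19 for metabolic and antioxidant genes, against −0.29 over all features. Catalase (CAT) stood at 334 and 328 CPM against 165 and 172 CPM, a log2 ratio of 1.02 and 0.94, and was not called. Of the 17 metabolic and antioxidant genes, 5 had a positive and 10 a negative log2 ratio in both libraries. Of the 10 clearance genes, 3 were positive and 5 negative in both. Over all 17333 features, 4363 were positive and 8284 negative in both. Of 16 genes of the cell cycle and DNA replication, 0 were called, 12 had a positive log2 ratio in both libraries (25.2% of all features had), and the median log2 ratio was 0.53.

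Features named for the strongest depletion included LOC116940529, LOC116952220, LOC116938313, LOC116954498, LOC116938187, LOC116947945, LOC116953001, LOC116953274 and LOC116956903. LOC116940529 was the abundant one, at 239 and 229 CPM in the members and 4980 and 5122 CPM in the others, and its background stood at 4455 and 4502 CPM. The others had from 0 to 12 counts in the members of a library. The members had fewer genes per remaining count: with the remaining counts of each barcode thinned to 500, the median was 234 genes in both libraries, against 286 and 283 in the other barcodes. Unthinned medians were 563 and 569 against 1316 and 1352. Thinning left out 3 of 344 members of library 1 and 0 of the other sets.

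Markers of other gonad and kidney cells were mostly low in the members and were concentrated in a few of them. Of 12 germ cell markers 3 were 4-fold lower and 0 higher, against 3.18% lower and 1.34% higher over all features. Their sum was 55.2 and 54.6 CPM in the members, 208 and 207 CPM in the others and 205 and 199 CPM in the background. TDRD1 and DMC1 were at 0 counts in the members of both libraries. The 5 stromal markers, SPARC and collagens among them, summed to 666 and 432 CPM in the members and 1609 and 1556 CPM in the others, and the 5% of members with most counts held 87.5% and 83.8% of them. The 5 renal tubule markers summed to 470 and 592 CPM against 1238 and 1207 CPM, and the top 5% of members held 85.6% and 89.1% of these counts. A single member held up to 285 of 571 renal counts in library 1 and 674 of 878 in library 2. The 4 endothelial markers, with 37 and 22 counts in the members, were low in members and others alike. Set against the background profile, LOC116940529 stood in the members at 5.36% and 5.08% of its background level and the germ cell sum at 27.0% and 27.5%. The subtraction of the background profile used germ cell, renal and endothelial markers together, which gave 47.0% and 62.3%, levels above those of LOC116940529. Renal counts made up most of that marker sum. Without barcodes of high doublet score, which left 328 and 380 members, the mean log2 ratio of MIOX moved from −1.27 to −4.22. The part of other cells and of background RNA in the ratios above was not tested.

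The members differed among themselves with the share of the rule genes. They were split into bins of 20 to 35% (29 and 26 members in libraries 1 and 2), 35 to 50% (36 and 28), 50 to 65% (101 and 95) and 65% and over (178 and 258). The median of remaining counts was 9683 and 8687.5 in the lowest bin and 1400 and 1600 in the highest. The bins were cut on the share of the rule genes, so that this fall is tied in part to the cut. LOC116951575 stood at 4568, 13327, 44768 and 84686 CPM of remaining counts over the 4 bins of library 1 and at 5336, 4008, 26206 and 83754 CPM in library 2. It lies in the block of the rule genes and may share reads with them. Its order over the bins may therefore not be independent of the cut, which was not tested. LOC116951444 went from 30110 to 90316 CPM and from 25820 to 76588 CPM. LOC116956946 went from 4136 to 16594 CPM and from 5004 to 17604 CPM, with each bin above the one before in both libraries.

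Named genes of iron handling and nuclear transport also stood highest in the top bin. NCOA4 stood at 319 CPM in the lowest and 1309 CPM in the highest bin of library 1, and at 394 and 1206 CPM in library 2. GLRX5 went from 585 to 1141 CPM and from 603 to 1213 CPM. XPO7 went from 9.39 to 92.0 CPM and from 12.3 to 103 CPM, on 3 and 4 counts in the lowest bins. The summed haem list, in which TMEM14C and the biliverdin reductases held most counts, stood at 2702 and 2744 CPM in the lowest and highest bin of library 1 and 2273 and 2657 CPM in library 2. Its highest level was at 50 to 65% in both, at 2803 and 2971 CPM. TMEM14C went from 1277 to 1236 CPM and from 1246 to 1278 CPM, and BLVRA from 711 to 285 CPM and from 360 to 256 CPM. FECH stood at 59.5 and 184 CPM in the lowest and top bin of library 1 and at 64.6 and 149 CPM in library 2, where it was highest at 50 to 65%. ABCB10 went from 21.9 to 101 CPM and from 58.4 to 91.9 CPM, ALAD from 40.7 to 52.1 CPM and from 18.5 to 74.3 CPM, and PPOX from 3.13 to 27.6 CPM and from 9.23 to 49.5 CPM. Counts were few, with 1 and 3 of PPOX in the lowest bins.

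Other genes also had their highest level below the top bin. LOC116951636 stood at 27681, 59371, 73166 and 22794 CPM over the 4 bins of library 1 and at 36901, 58060, 85817 and 28730 CPM in library 2, with the highest value at 50 to 65% in both. LOC116946130 stood highest at 35 to 50%, at 25205 and 32615 CPM, and fell to 1490 and 2640 CPM in the top bin. PCNA, the sliding clamp of DNA replication, was lowest in the top bin of both libraries, at 172 and 293 CPM. Markers of other cells were highest in the lowest bin: MIOX, a renal enzyme gene, stood at 1377 and 2076 CPM there and at 88.9 and 90.2 CPM in the top bin, and SPARC at 601 and 446 against 98.1 and 65.4 CPM. A single member held 285 of the 466 renal counts of the lowest bin in library 1 and 674 of the 702 in library 2, and MIOX gave 440 and 675 of the renal counts there. Ribosomal protein genes made up 258906 and 291187 CPM of the lowest bin and 209365 and 235837 CPM of the top bin. The part that other cells' RNA in the low bins has in these orders was not tested.

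**Figure D4:**
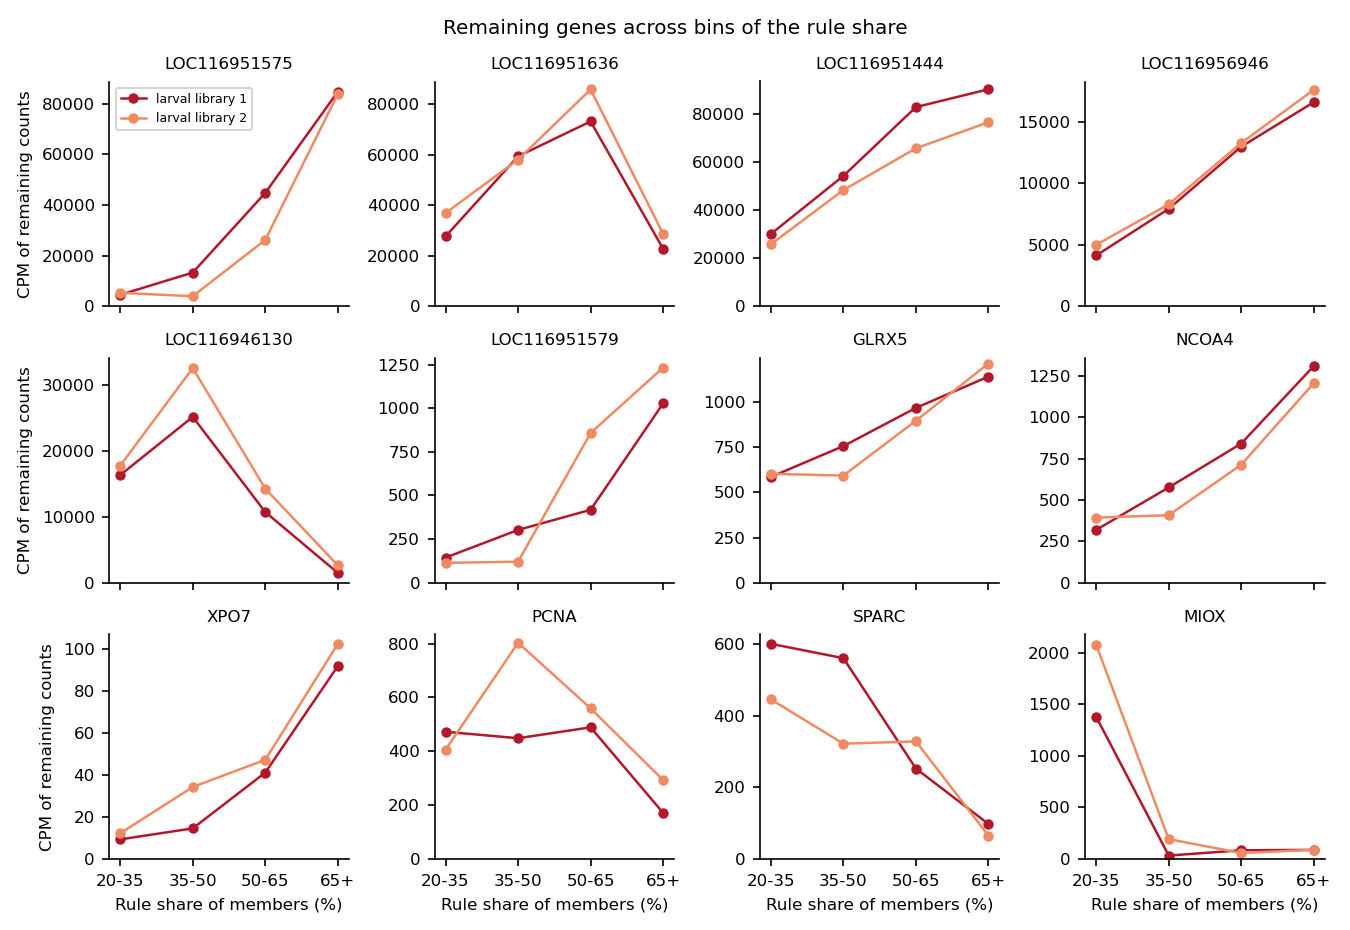
CPM of remaining counts (linear axes from 0) of 12 genes in members binned by the share of the rule genes, in larval libraries 1 and 2. LOC116951575, LOC116951444, LOC116956946 and NCOA4 end highest in the top bin, LOC116951636 peaks at 50 to 65%, LOC116946130 peaks at 35 to 50%, and MIOX and SPARC are highest at 20 to 35%.

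The stage comparison asked how larval members differ from the comparable transformer barcodes in genes that chose neither. Counts were summed per library, the 11 chromosome 43 genes named for either stage were left out, and edgeR's quasi-likelihood test set the 2 larval libraries against the female and male libraries together. Of 7866 genes tested, 431 were higher in the larval members (5.48%) and 460 were lower (5.85%) at an adjusted p under 0.05. These made 891 calls. The direction depends on scaling. With totals in place of TMM factors (edgeR's trimmed mean scaling), the log2 fold changes rose by a median of 1.08, and 2959 genes were higher and 63 lower, so that 97.9% of calls were higher in place of 48.4%. LOC103091815, LOC116951647 and LOC116951653 stayed in the totals. They stood at 210163, 116332 and 112717 CPM in the female library and 192531, 171130 and 167343 CPM in the male library. In the larval libraries each stood at 2434 CPM or less. Their part in the shift was not tested. CPM printed for this comparison are scaled by totals. Without larval library 1, 0 genes were higher and 1 lower in the edgeR test, with 1445 at an unadjusted p under 0.05. Without larval library 2 the counts were also 0 and 1, with 1420 at an unadjusted p under 0.05. In both cases the only pair left to give the spread was female against male. DESeq2 called 328 higher and 207 lower, and 453 of the 891 calls were shared. Stage and any batch of handling cannot be told apart.

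Of 13 genes of haem synthesis and handling tested, 4 were higher in the larval members than in the transformer barcodes and 1 was lower. Over all genes tested, 5.48% were higher and 5.85% lower. ALAD stood at 54.2 and 61.0 CPM in larval libraries 1 and 2, against 1.43 CPM (female) and 1.18 CPM (male), so that the log2 difference was 4.37 with an SE of 0.33 (edgeR adjusted p 0.0069); errors after ± below are SE. TMEM14C stood at 1554 and 1671 CPM against 188 and 172 CPM (2.07 ± 0.17, edgeR adjusted p 0.0072). ABCB10 stood at 83.1 and 90.0 CPM against 21.9 and 10.6 CPM (1.34 ± 0.31, edgeR adjusted p 0.0483). In the larval background these genes stood far lower than in the members, ALAD for one at 4.31 and 4.08 CPM. FECH did not pass, at 123 and 144 CPM against 54.8 and 36.1 CPM (log2 0.48, edgeR adjusted p 0.216), nor did GLRX5, at 963 and 998 against 402 and 285 CPM (0.43, adjusted p 0.128). With totals both passed, at log2 fold changes of 1.56 for FECH and 1.53 for GLRX5. DESeq2 did not call ABCB10.

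Genes of breakdown and storage were among the lower calls, though each of them depended on scaling. HMOX2 stood at 9.04 and 5.21 CPM in the larval members and 14.0 and 14.2 CPM in the transformers (log2 −2.10 ± 0.39, edgeR adjusted p 0.0296). NCOA4 stood at 861 and 863 CPM against 1474 and 828 CPM (−1.48 ± 0.20, edgeR adjusted p 0.0167), with values that overlap. FTH1 stood at 13686 and 12628 CPM against 13562 and 11554 CPM (−1.03 ± 0.12, edgeR adjusted p 0.0132), and with totals its log2 fold change was 0.08. HMOX2 and NCOA4 did not pass with totals. Of the 5 iron genes tested, NCOA4 and FTH1 passed lower and 0 passed higher, against 5.85% lower and 5.48% higher over all genes tested. LOC116951552, a chromosome 43 gene outside the 11, also turned with the scaling, from −0.94 to 0.16.

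Of 11 genes of the cell cycle list tested, 5 were higher in the larval members and 0 were lower, against 5.48% and 5.85% of all genes tested. UBE2C, a ubiquitin-conjugating enzyme that drives exit from mitosis, stood at 185 and 154 CPM in the larval members and 1.30 and 1.48 CPM in the transformers (log2 5.90 ± 0.32, edgeR adjusted p 0.00166). CCNB2, a mitotic cyclin, stood at 224 and 136 CPM against 22.2 and 10.6 CPM (2.37 ± 0.36, edgeR adjusted p 0.0202). CENPE, TK1 and PLK1, which serve chromosome movement, thymidine salvage and mitotic entry, had log2 fold changes of 2.89, 2.68 and 2.57. PLK1 rested on few counts, at 7.23 and 5.21 CPM in the larval members against 0.478 and 0.591 CPM in the transformers. UBE2C was also higher in the larval than in the transformer background, at 57.7 and 55.7 against 15.1 and 6.60 CPM, whereas CCNB2 stood at 79.0 and 67.5 CPM in the larval and 308 and 75.1 CPM in the female and male background. TK1 stood at 53.3 and 72.9 CPM in the larval members and at 51.5 and 44.9 CPM in their background. PCNA did not pass, at 431 and 510 against 25.7 and 57.7 CPM (log2 2.35, edgeR adjusted p 0.0915). Background RNA differed between the stages for these genes, and its part in the calls was not tested.

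Among the 13 metabolic and antioxidant genes tested, 4 passed higher and 1 lower, against 5.48% and 5.85% of all genes tested. GPX4 (LOC116951847), a peroxidase of membrane lipids, stood at 956 and 854 CPM against 165 and 139 CPM (log2 1.48 ± 0.16, edgeR adjusted p 0.011). GSS, PGK1 and TXN, which serve glutathione synthesis, glycolysis and thiol reduction, also passed higher (log2 2.59, 1.32 and 0.81), though DESeq2 did not call TXN. PGK1 stood at 229 and 201 CPM in the larval members, below their background of 310 and 329 CPM. GSS stood at 31.6 and 25.3 against 28.7 and 19.8 CPM in that background, and TXN at 1200 and 1149 against 1127 and 1098 CPM. The larval background of GSS, PGK1 and TXN was above that of both transformer libraries, and that of GPX4 was not. The part of background RNA in these calls was not tested. TPI1, another glycolytic enzyme, passed lower at −1.01 with TMM factors and stood at 0.08 with totals. No gene passed among the 6 genes of the NPRL3 neighbourhood, 4 transcription factors, 3 membrane genes, 9 clearance genes, 3 hypoxia genes, 4 germ cell, 3 endothelial, 4 renal or 5 stromal markers tested in edgeR. Of these 41 genes, 0 passed in edgeR, and 8 were below 0.05 before adjustment, against 2413 of all 7866 genes tested. With totals in place of TMM factors, 16 of the 41 passed, all 16 higher in the larval members. Among all 7866 genes, 2959 then passed higher and 63 lower. By DESeq2, STOM alone was called, higher in the larval members (named after its value was seen). STOM stood at 47.0 and 64.0 CPM in the larval members, below their background of 116 and 102 CPM. The part of background RNA in this call was not tested.

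The 10 largest rises and the 10 largest falls were named by rule. The rises were LOC116943552, LOC116956833, LOC116949441, UBE2C, LOC116950999, LOC116948796, LOC116944298, LOC116941468, LOC116946955 and LOC116937149, with log2 fold changes from 4.94 to 6.92. LOC116956833 stood at 43.4 and 60.2 CPM in the larval members, 0.130 and 0.591 CPM in the female and male barcodes, and 1.44 and 3.06 CPM in the larval background (log2 6.82 ± 0.71, edgeR adjusted p 0.0109). LOC116949441 stood at 30.7 and 27.5 CPM, against 0.130 and 0.296 CPM in the transformers and 2.67 and 1.63 CPM in the larval background. In 5 of the 10, the members stood above the larval background in both libraries. The other 5 did not, LOC116943552 for one with 17.2 and 25.3 CPM in the members and 47.4 and 42.5 CPM in the background. In 9 of the 10 the larval background was itself above that of both transformer libraries. The share of all 7866 genes tested with either pattern is not given, so that these counts only describe the 10 named genes.

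The falls were LOC116951647, LOC116951653, LOC103091815, LOC116951685, LOC116955663, LOC116952286, LOC116951376, LOC116951435, LOC116951469 and LOC116942703, with log2 fold changes from −8.04 to −5.98. Of these, LOC116951647, LOC116951653, LOC103091815, LOC116951685 and LOC116951376 lie on chromosome 43. LOC103091815 stood at 2149 and 2434 CPM in the larval members and 210163 and 192531 CPM in the transformers (log2 −7.56 ± 0.19). LOC103091815, LOC116951647 and LOC116951653 lie in the same run as genes that chose the transformer barcodes and may share reads with them. Their falls are therefore not independent of that choice and are a description. LOC116955663, on chromosome 61, stood at 2.71 and 3.72 CPM against 175 and 99.7 CPM (−6.45 ± 0.34, edgeR adjusted p 0.00166). With 6 more chromosome 43 genes left out, LOC103091815 and its neighbours among them, 436 genes were higher and 353 lower.

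**Figure D5:**
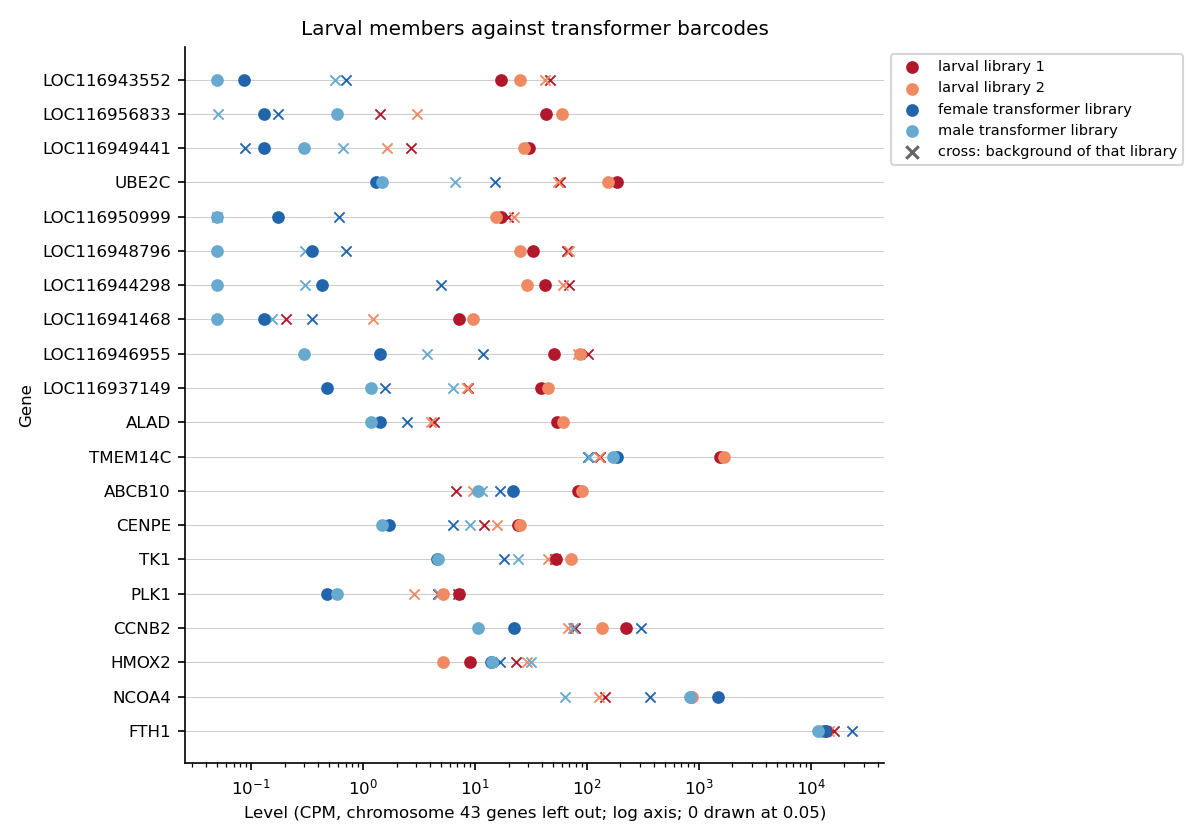
CPM (log axis; 11 chromosome 43 genes left out; 0 drawn at 0.05) of the 10 largest rises and of listed haem, cell cycle and iron genes that passed the edgeR test, in larval members and transformer barcodes (circles) and in the background of each library (crosses). UBE2C, LOC116956833, LOC116949441 and ALAD lie above the larval background in the larval members, and LOC116943552 lies below it.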

How the data were processed

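Single cell RNA libraries of 2 larval, 1 female transformer and 1 male transformer gonad samples were analysed from the matrices the authors deposited. The deposited values are whole-number counts per gene and barcode, per the file headers, with barcodes not filtered to cells. Capture and library preparation used a PIPseq T20 3' kit, per the labels' protocols. The aligner, the counter, the genome build and whether 1 count is 1 molecule are not given in the sources used here. Libraries held 239024376 to 406358335 counts. The larval libraries are biological replicates per the labels. The members and lists were chosen with earlier results of these data known. Gene names and order came from the RefSeq table of assembly UKy_Petmar_22M1.pri1.0, without its coordinates, and 11871 of 13987 LOC features matched it.

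Barcodes above a fixed count minimum and with at least 250 genes were called cells, and those with at least 20% of counts from the 3 rule genes were members. Features with at least 50 counts in members and others together were compared as CPM of counts without the rule genes (prior count 0.5), with no test. For the stage comparison, counts summed per library were fitted in edgeR 4.0.16 (R 4.3.3; quasi-likelihood test, TMM factors, its filter on low counts) with Benjamini-Hochberg adjustment. Each SE was derived from the fold change and its F value (log2 change over root F). TMM factors were 1.50 and 1.44 for the larval and 0.765 and 0.604 for the female and male libraries. On simulated data for this comparison (7866 genes, 200 changed by a log2 of 2), 44% of changed genes were recovered with 1 false call. The simulation drew all libraries from the same profile at a dispersion of 0.1, with random directions of change. It held no shift in composition between stages, so that it cannot show false calls that come from scaling. Intervals are exact Clopper-Pearson and, like the limits from a count of 0 (3 counts), cover counting error only.

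Scrublet, run through scanpy 1.11.5 under Python 3.11.15, marked 0% of both larval libraries and of the male library by its automatic threshold, so that it had not worked. No doublets were removed, and leaving out scores at or above the 95th percentile is an alternative. Others were the share and count minimums, filters on low counts, scaling, subtraction of the background profile, DESeq2 1.42.0 and leaving out each library. The 35% share minimum and the fit without 6 more chromosome 43 genes were chosen after seeing the data. Named were the 15 most abundant features of members, the 20 with the largest and the 10 with the most negative ratio in both libraries above a count minimum, the 10 largest stage rises and falls without overlap, and listed genes with at least 50 counts in members of a library. UROD, PPOX, CPOX, HMOX2, GATA2, EPAS1, NPRL3, CENPE, PLK1 and GSS fell below that minimum and were named after their values were seen, as were other listed genes with few counts and the chromosome 43 neighbours. Some genes that these rules or lists hold are counted in their group and not reported here by name.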

Additional observations from a re-analysis of the deposited data

Results flagged for a closer look

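Barcodes below the count minimum, which no comparison uses, also held the signal of the rule genes. In larval library 1, 107 of 7035 barcodes with between 500 counts and the minimum gave at least 20% of them to the 3 rule genes. In larval library 2 it was 113 of 6857. They were flagged because the signal appears in data outside the main measurement. In these libraries the background held 3.64% and 4.32% of its counts in the rule genes. Whether these barcodes are cells was not tested.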

How the results depend on the processing

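No paired analysis was possible because the female and male transformer libraries share no pairing with the larval libraries, and members against other barcodes has no test. The share of LOC116951576 among the rule genes (46.3%) was 46.3% also with share minimums of 10%, 35% and 50% and a higher count minimum, and 46.3% with either library left out. Members were 1.57% of called barcodes at a 50% share minimum, against 1.86%, and 1.75% to 1.98% with either library left out. Thinned to 1000 counts, the members' median genes were 0.800 of the others', against 0.823. Features higher in members (233) numbered 362 at a 50% share, 1327 with no count minimum, 366 with TMM factors, which raised log2 ratios by 0.34, 485 with background subtracted, and 476 to 534 with 1 library. Features lower (552) numbered 1080 at 50%, 966 at 35%, 1078 without high doublet scores, 3696 with background subtracted, and 1185 to 1397 with 1 library, where only 1 library has to pass. The subtraction took 47.0% and 62.3% of remaining counts as background, a level set mostly by renal counts. The 485 and 3696 are therefore not read as traits of the members.

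For larva against transformer, 431 genes higher became 2959 with totals, 689 at a 50% share, 89 at 10%, and 0 to 1047 with a library left out. The 460 lower became 63 with totals, 1094 with no filter, 42 at 10%, 207 with DESeq2, and 1 to 1453 with a library left out. A group left with 1 sample is then assumed to vary like the other group. The 50% share left only 26 male barcodes, under the minimum of 50 set for a test, so that its 689 is not read as a result. With totals FTH1 (0.080), TPI1 (0.081) and LOC116951552 (0.16) reversed. Of single-gene values between stages, 318 kept direction and threshold, 105 lost the threshold and 3 reversed. Of those between members and others, 705 stayed within the spread and 401 moved. Only genes called 4-fold could be marked as reversed here, and 0 of them were. A change of sign in other genes was not marked. The cause was not tested. Depth limits listed genes with under 20 counts in members.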
